A study of Phaseolus vulgaris with 24 samples.

Results

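The genes described here are the 150 of the 27213 common bean (Phaseolus vulgaris) genes in the tables that were lower after salt in Ispir leaves (IL) and higher after salt in TR43477 leaves (TL) by the largest margin. They were chosen by measured values. Counts of each leaf library were scaled to the library total (CPM, counts of a gene per 1000000 counts), log2(CPM + 1) was averaged over the 3 control and the 3 salt libraries of a genotype, and the score of a gene was the smaller of its decrease in IL and its increase in TL. In the tables, 7233 genes had a decrease in IL and an increase in TL of any size, and the members are the 150 with the largest score. The leaf values below therefore describe the members and test nothing, whereas the root libraries took no part in the choice.

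The study grew Ispir, which it calls salt-tolerant, and TR43477, which it calls salt-susceptible, in hydroponics, and asked how the responses of these genotypes to salt differ. Seedlings were transferred once their foliage had expanded, on a later day after sowing for Ispir than for TR43477. Genotype and this age cannot be told apart. Salt plants received NaCl from 5 days after transfer, at 50 mM on the first day and 100 mM on the second, and were then kept at 125 mM for 3 days, while control plants received none. Leaf and root RNA of 3 plants of either genotype was sequenced under either treatment, so that the 24 libraries form 8 groups. The sources used here do not say whether a leaf and a root library with the same number came from the same plant, and each tissue was sampled at a single time. Each library held 12163655 to 26416766 counts, so that 3 counts, taken as the detection limit, corresponded to 0.114 to 0.247 CPM, a limit that covers counting error only. In whole tissue, fewer cells of a type and less RNA per cell cannot be told apart.

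Salinity first limits the uptake of water by the root and later loads leaves with ions, and plants answer by changing transport, osmolyte and wall metabolism and photosynthesis. Potassium transporters keep the cytosolic cation balance that sodium disturbs, myo-inositol and sugars serve as osmolytes or as precursors of wall polymers, and pectin-cutting enzymes loosen the wall. Light-harvesting (Lhc) and Rubisco genes, which make the antenna proteins and the CO2-fixing enzyme of the chloroplast, mark green tissue. All 26 such genes in the study's lists had a higher mean in leaf than in root. Their summed level was 5006 to 66368 CPM in leaf libraries and 43.9 to 538 CPM in root libraries, as the tissue labels say.

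The score ran from 4.63 to 1.41 on the log2 scale, with 8 members above 3 and 49 above 2. For 89 members the decrease in IL was the smaller change and set the score, and for 61 it was the increase in TL. The last 3 members had scores of 1.416, 1.415 and 1.414, and the first 3 genes left out had 1.414, 1.413 and 1.412, so the list has no natural end. Over the members the change of log2(CPM + 1) with salt was −5.08 to −1.41 in IL, with a median of −2.02, and 1.42 to 8.58 in TL, with a median of 2.12.

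The levels of the members differed between the control leaves of the genotypes, but these libraries entered the choice. The leaf comparisons that follow are a description, and nothing is read from them about the genotypes. The median member was at 42.0, 27.0 and 12.7 CPM in the 3 Ispir control leaves and at 8.39, 3.69 and 2.11 CPM in the 3 Ispir salt leaves. In TR43477 it was at 8.15, 8.63 and 2.61 CPM in the control leaves and at 38.9, 36.0 and 40.3 CPM in the salt leaves. Ispir control replicate 3 lay below every TR43477 salt leaf and above every TR43477 control leaf. By mean CPM, 137 of the 150 members were higher in Ispir than in TR43477 control leaves, by a median of 2.001 on the log2 scale, and 147 were higher in TR43477 than in Ispir salt leaves, by a median of 2.49. Between salt leaves of TR43477 and control leaves of Ispir, 90 members were higher in the former, with a median log2 ratio of 0.21. The median of all genes counted in a leaf library stayed between 11.2 and 14.4 CPM.

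**Figure D1:**
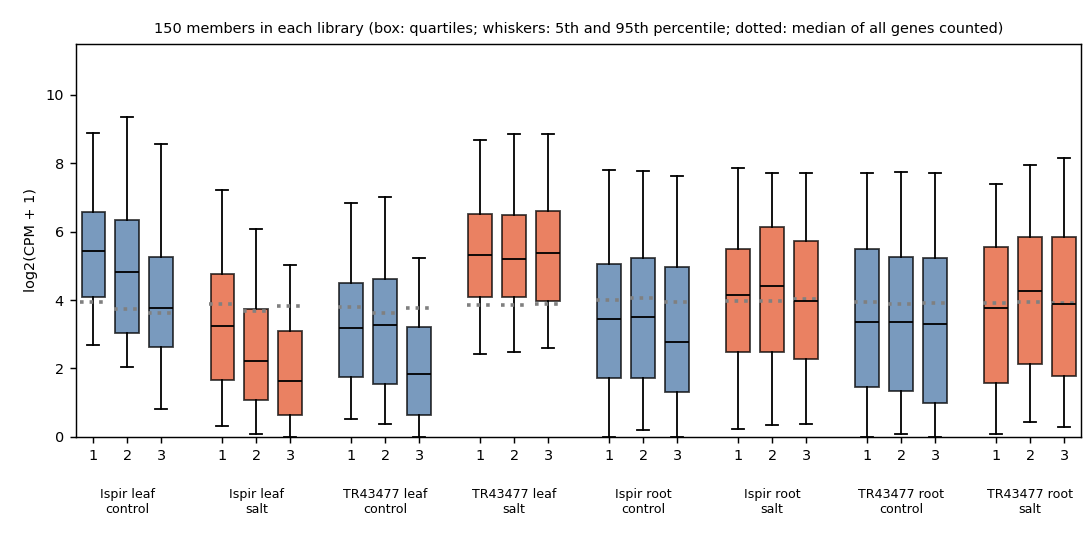
Levels of the 150 members in each of the 24 libraries as log2(CPM + 1), with boxes at the quartiles, whiskers at the 5th and 95th percentile, the black line at the median of the members and the dotted line at the median of all genes counted in that library. Median members are high in Ispir control leaves (42.0, 27.0 and 12.7 CPM) and TR43477 salt leaves (38.9, 36.0 and 40.3 CPM), low in the other leaf groups, and higher in salt than in control libraries of either root.

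The members together took 1.94, 2.32 and 1.45% of all counts in the Ispir control leaves and 0.79, 0.409 and 0.176% in the salt leaves. In TR43477 they took 0.421, 0.491 and 0.182% in the control and 1.60, 1.60 and 1.59% in the salt leaves. The member with the highest mean share, Phvul.001G024500, named here after its values were seen and unnamed in the files, took at most 0.351% of a library (control replicate 2 of Ispir), and the other members then held 1.97% of that library.

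The 3 libraries of a leaf group were not alike, except for the salt leaves of TR43477. Control replicate 3 was the lowest of its group for 113 members in Ispir and for 106 in TR43477, whereas it was the lowest for 38.5% and 31.2% of all genes counted in that group. Salt replicate 3 of Ispir was the lowest for 126 members, against 40.2% of all genes, and salt replicate 1 the highest for 129, against 48.7%. The standard deviation of log2(CPM + 1) within a group had a median over the members of 0.87 in Ispir control, 0.67 in Ispir salt and 0.90 in TR43477 control leaves, and of 0.24 in TR43477 salt leaves. Over all genes counted, these medians were 0.25, 0.20, 0.37 and 0.15. When the choice was repeated without control replicate 3, 121 of the members were chosen again without the Ispir library and 117 without the TR43477 library. In root groups the median standard deviation was also higher over the members than over all genes. It was 0.25 against 0.15 in Ispir control and 0.36 against 0.23 in Ispir salt roots. In TR43477 it was 0.43 against 0.22 in control and 0.26 against 0.14 in salt roots.

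In TR43477 leaves the green-tissue genes moved with salt in the direction opposite to the members. The study's lists that hold these genes were drawn up from the same libraries. Their change in leaves is therefore not independent of their place on a list, and the contrast with the members tests nothing. The summed level of the 26 Lhc and Rubisco genes was 14626, 28589 and 53111 CPM in control replicates 1, 2 and 3 of Ispir leaves and 27574, 34311 and 50358 CPM in salt replicates 1, 2 and 3. In TR43477 leaves it was 33811, 44664 and 66368 CPM in control and 5053, 5791 and 5006 CPM in salt replicates 1, 2 and 3. In each of Ispir control, Ispir salt and TR43477 control leaves, the library with the highest sum of these genes was the library with the lowest median member. In TR43477 the salt leaves lay below every control leaf for the green-tissue genes and above every control leaf for the median member. In Ispir the ranges of control and salt leaves overlapped for the green-tissue genes. Whether the members' leaf values depend on what moves the green-tissue genes was not tested.

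**Figure D2:**
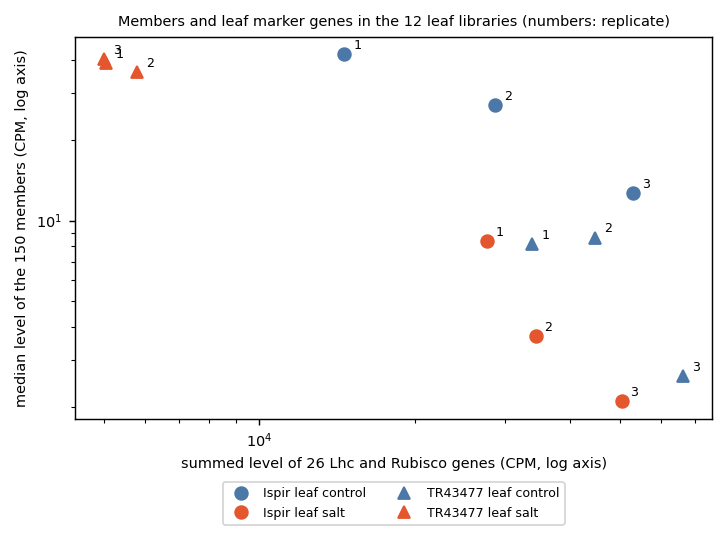
Median level of the 150 members (vertical, CPM, log axis) against the summed level of 26 Lhc and Rubisco genes (horizontal, CPM, log axis) in the 12 leaf libraries, 1 point a library with its replicate number. Within 3 of the groups the library numbered 3 lies lowest and farthest right, and the 3 salt leaves of TR43477 lie together at 5006 to 5791 CPM of the Lhc and Rubisco genes.

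Since the rule used these contrasts, edgeR calls in leaf are given without a reading. A gene is called here when its absolute log2 fold change exceeds 1 and its adjusted p lies under 0.01, the thresholds of the study. The p is that of the quasi-likelihood test of edgeR, adjusted by the method of Benjamini and Hochberg for all genes counted in the libraries compared. All 150 members entered both leaf fits, and 17 were called lower in IL, where 2.15% of all 22315 genes tested were called in this direction. In TL 25 were called higher, where 2.62% of 22672 genes were. The salt libraries lay below all control libraries for 113 members in IL (23.8% of all genes) and above them for 132 in TL (30.3% of all genes), and 99 members met both conditions, as did 6.1% of the 21681 genes tested in both leaves. With the quasi-likelihood test, both calls together were met by 0.00461% of these genes, a single gene. The study, also with edgeR and at these thresholds, reported many more genes with contrasting leaf patterns, both directions counted. The single gene is the member Phvul.011G090100 (chromosome 11 from 8773415 to 8775648), which has no name in the files. It held 88.8, 51.8 and 93.6 CPM in control and 16.9, 6.72 and 5.51 CPM in salt leaves of Ispir. In TR43477 it held 19.5, 26.9 and 30.8 CPM in control and 78.03, 81.4 and 74.3 CPM in salt leaves.

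The highest scores belonged to 2 genes that the files leave unnamed. Phvul.010G123400 (chromosome 10 from 40446897 to 40448775) was at 117, 262 and 35.8 CPM in Ispir control leaves and at 22.0, 0.662 and 0.973 CPM in Ispir salt leaves. In TR43477 leaves it was at 1.49, 4.97 and 0.209 CPM in control and at 96.2, 84.1 and 80.7 CPM in salt libraries. In all 12 root libraries it lay between 76.9 and 202 CPM. Phvul.008G245600 (chromosome 8 from 59440402 to 59451041) was at 50.5, 87.2 and 7.86 CPM in Ispir control and 2.55, 1.78 and 0.891 CPM in Ispir salt leaves, and went from 7.85, 5.50 and 0.626 CPM to 54.1, 70.3 and 62.7 CPM in TR43477. For both genes the control and salt libraries of either genotype's leaves did not overlap. Their root log2 fold changes were 0.55 (adjusted p = 0.0462) and 0.34 (adjusted p = 0.509) in Ispir and 0.50 (adjusted p = 0.338) and 0.96 (adjusted p = 0.0556) in TR43477, and none was called.

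The 14 members that the study's gene lists annotate are plotted by library, and are described next by role. These lists were drawn up by the study from the same libraries, so that a member's place on a list is not independent of its change.

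**Figure D3:**
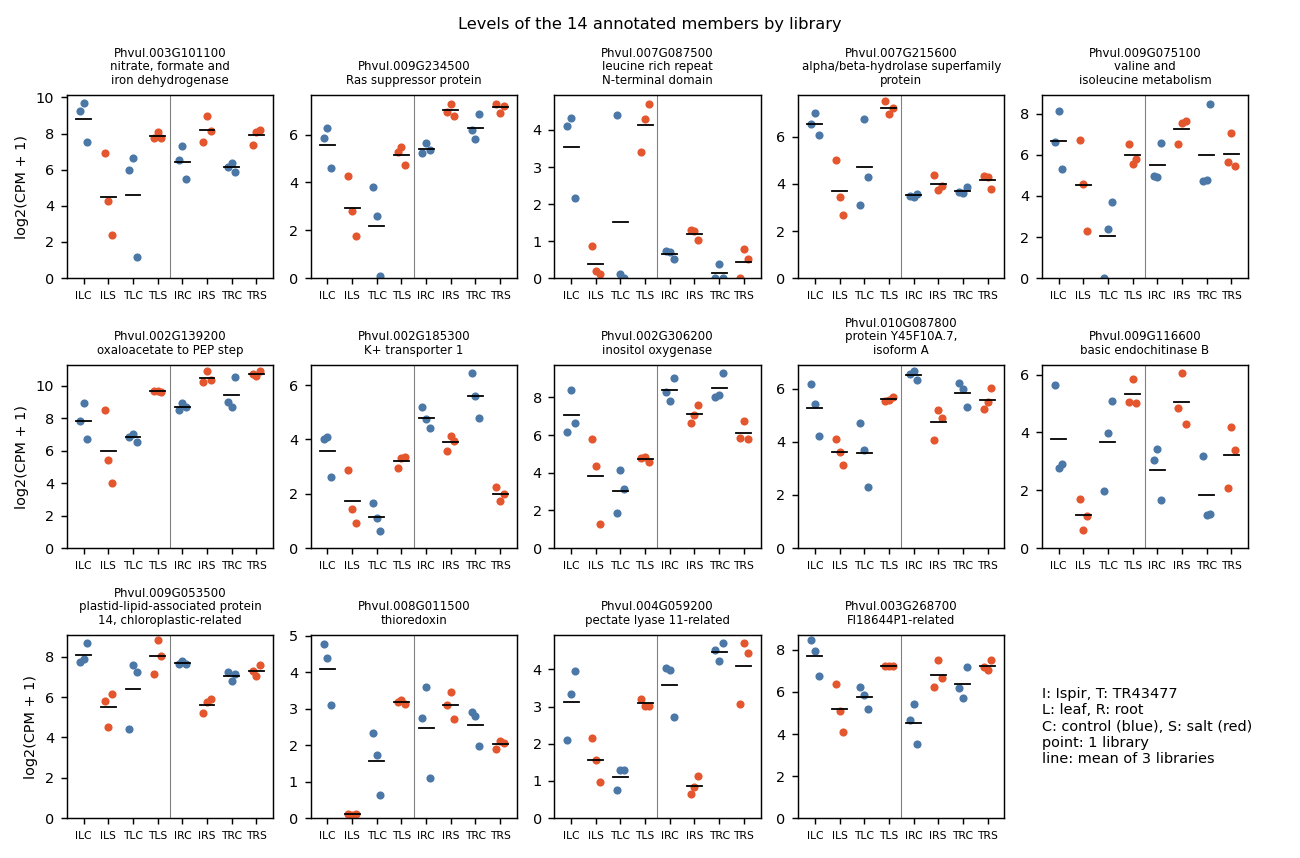
Levels of the 14 annotated members as log2(CPM + 1) in the 4 leaf groups (left of the grey line) and the 4 root groups (right), 1 point a library, with a line at the mean of 3 libraries, control in blue and salt in red. In the leaf panels the means fall from control to salt in Ispir and rise in TR43477, as the choice requires, while in the roots the K+ transporter 1 and inositol oxygenase genes lie lower in salt than in control libraries of both genotypes.

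The annotated genes of transport and inositol metabolism had lower means after salt in both roots. The K+ transporter 1 gene Phvul.002G185300 (chromosome 2 from 34690694 to 34695628), named for a protein that moves potassium into or out of cells, was at 15.2, 15.9 and 5.13 CPM in control and 6.33, 1.73 and 0.891 CPM in salt leaves of Ispir, and at 2.17, 1.15 and 0.556 CPM and 6.66, 8.93 and 9.19 CPM in those of TR43477. The leaf groups overlapped in Ispir and not in TR43477. In TR43477 roots (TR) it was at 86.2, 47.5 and 26.5 CPM in control and 3.70, 2.31 and 2.97 CPM in salt libraries. It fell there, its log2 fold change being −4.25 (standard error 0.46, adjusted p = 0.00871). In Ispir roots (IR) it was at 35.1, 26.1 and 20.5 CPM in control and 10.8, 16.6 and 14.6 CPM in salt libraries, a log2 fold change of −0.96 that was not called (adjusted p = 0.0332). In either root the groups did not overlap. The responses of the roots differed by 3.28 on the log2 scale, Ispir minus TR43477 (standard error 0.53), and this difference was not called (adjusted p = 0.0359), though DESeq2 called it (adjusted p = 2.1e-06). The call in TR was lost without control replicate 1 or 2 or any 1 of the salt replicates (adjusted p from 0.0149 without control replicate 1 to 0.069 without salt replicate 3) and with edgeR's filterByExpr (adjusted p = 0.0102).

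The inositol oxygenase gene Phvul.002G306200 (chromosome 2 from 47424918 to 47427434), whose enzyme oxidises myo-inositol to glucuronate on a path to wall polysaccharides, was at 70.4, 339 and 100.2 CPM in control and 54.5, 19.8 and 1.46 CPM in salt leaves of Ispir. In TR43477 leaves it was at 2.62, 16.6 and 7.72 CPM in control and 26.1, 27.5 and 22.4 CPM in salt libraries. Its level in roots was 318, 221 and 529 CPM in IR control and 99.4, 131 and 193 CPM in IR salt libraries, and 255, 279 and 639 CPM in TR control and 56.0, 106 and 55.4 CPM in TR salt libraries. Salt libraries of both roots lay below all control libraries. The log2 fold changes of −1.36 in IR (adjusted p = 0.0491) and −2.53 in TR (adjusted p = 0.0361) were not called. In TR the gene was called without control replicate 3 (log2 fold change −1.97, adjusted p = 0.0077) and in the fit over all 12 root libraries (adjusted p = 0.0089), and in both roots with DESeq2 and edgeR's likelihood ratio test.

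A gene of carbon metabolism was higher after salt in both roots. Phvul.002G139200 (chromosome 2 from 29011297 to 29017550), which the study places at the conversion of oxaloacetate to phosphoenolpyruvate (PEP), a step of gluconeogenesis, was at 232, 486 and 105 CPM in control and 368, 43.0 and 15.4 CPM in salt leaves of Ispir, where the groups overlapped. In TR43477 leaves it was at 117, 129 and 93.9 CPM in control and 829, 820 and 795 CPM in salt libraries. In IR it rose from 361, 482 and 416 CPM to 1210, 1906 and 1322 CPM (log2 fold change 1.81, standard error 0.24, adjusted p = 0.00362). In TR it was at 514, 416 and 1493 CPM in control and 1679, 1584 and 1966 CPM in salt libraries, without overlap and without a call (log2 fold change 1.02, adjusted p = 0.346). The call in IR was lost in the fit over all 12 root libraries (adjusted p = 0.0149) and without any 1 control replicate or salt replicate 3 (adjusted p from 0.0121 to 0.0264).

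Control replicate 3 of TR43477 roots was the high library in that group for this gene, and more so for the gene of valine and isoleucine metabolism. The latter, Phvul.009G075100 (chromosome 9 from 12802311 to 12811422), was at 25.5, 26.8 and 357 CPM in TR control and 49.5, 134 and 42.5 CPM in TR salt libraries. In IR it was at 30.4, 29.7 and 94.8 CPM in control and 92.7, 188 and 198 CPM in salt libraries. The groups overlapped in both roots, and the gene was called in neither. Control replicate 3 of TR43477 roots also held 538 CPM of the Lhc and Rubisco genes, against 158 and 177 CPM in the other TR control libraries. Its part in the values of the members in TR was not tested beyond leaving it out.

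A plastid gene and a wall gene fell in IR and were not called in TR. The plastid-lipid-associated protein 14 gene Phvul.009G053500 (chromosome 9 from 10298297 to 10303452) belongs to a family known for structural proteins of plastid lipid bodies. It fell in IR from 199, 219 and 196 CPM to 36.2, 52.1 and 58.0 CPM, its log2 fold change being −2.07 (standard error 0.18, adjusted p = 0.00106), and stayed called without each library in turn. In TR it was at 150.4, 111 and 140.2 CPM in control and 157, 129 and 189 CPM in salt libraries, with overlapping groups and a log2 fold change of 0.16 (adjusted p = 0.727). The difference of the responses was −2.24, Ispir minus TR43477 (standard error 0.27), the smallest adjusted p of any member for this interaction (0.0202), and was not called by edgeR's quasi-likelihood test, though DESeq2 called it (adjusted p = 1.8e-10). Without TR43477 root control replicate 2 it passed the thresholds (−2.12, adjusted p = 0.00975). In leaves it was at 213, 239 and 408 CPM in control and 55.1, 22.1 and 70.9 CPM in salt libraries of Ispir, and at 20.0, 188 and 150.02 CPM and 141, 462 and 262 CPM in those of TR43477, where the groups overlapped.

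The pectate lyase 11-related gene Phvul.004G059200 (chromosome 4 from 8278408 to 8282269), of a family that cuts the pectin of the wall, fell in IR from 15.5, 14.8 and 5.62 CPM to 0.575, 0.773 and 1.18 CPM, its log2 fold change being −3.81 (standard error 0.46, adjusted p = 0.00264). In TR it was at 21.9, 17.7 and 25.005 CPM in control and 7.41, 25.4 and 20.9 CPM in salt libraries (log2 fold change −0.36, adjusted p = 0.716). The IR groups were apart and the TR groups overlapped, whereas the difference of the responses (−3.45, standard error 0.67) was not called (adjusted p = 0.0713). In IR the call was lost without control replicate 1 or 2 or salt replicate 1 or 3 (adjusted p from 0.01005 to 0.015). Its leaf values were 3.32, 9.15 and 14.5 CPM in control and 3.45, 1.94 and 0.973 CPM in salt libraries of Ispir, and 0.673, 1.45 and 1.46 CPM and 8.30, 7.12 and 7.15 CPM in those of TR43477. The leaf groups overlapped in Ispir and not in TR43477.

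Of the other annotated members, 2 were called in a root. Phvul.009G234500 (chromosome 9 from 35155278 to 35159067), annotated as a Ras suppressor protein, rose in IR from 36.3, 49.0 and 40.4 CPM to 122, 156 and 110 CPM (log2 fold change 1.62, standard error 0.19, adjusted p = 0.00225). In TR it was at 71.0, 55.7 and 116 CPM in control and 155, 120 and 147 CPM in salt libraries (log2 fold change 0.71, adjusted p = 0.251), with salt above control throughout. Without IR control replicate 1, 2 or 3 its adjusted p was 0.0152, 0.0121 or 0.0102, over the threshold. Phvul.010G087800 (chromosome 10 from 33539853 to 33545431), listed under the protein name Y45F10A.7, fell in IR from 92.6, 101 and 78.9 CPM to 15.9, 36.0 and 29.0 CPM (log2 fold change −1.76, standard error 0.27, adjusted p = 0.0068). Its TR libraries overlapped, at 73.1, 61.6 and 39.0 CPM in control and 36.1, 44.7 and 64.5 CPM in salt (log2 fold change −0.34, adjusted p = 0.602). Its call was lost without any 1 control replicate of IR or without salt replicate 3 (adjusted p from 0.0163 to 0.0303).

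With the quasi-likelihood test and no library left out, the remaining 6 annotated members were called in neither root. Their calls under alternative settings are not listed here. The nitrate, formate and iron dehydrogenase gene Phvul.003G101100 ran with the same sign and nearly the same size in both roots, at a log2 fold change of 1.73 in IR (adjusted p = 0.0594) and 1.70 in TR (adjusted p = 0.0187). It was at 90.3, 156 and 43.7 CPM in control and 181, 496 and 278 CPM in salt libraries of IR, and at 70.7, 82.6 and 57.7 CPM and 167, 271 and 293 CPM in those of TR, without overlap in either. Its leaf values spread widely, with 609, 831 and 183 CPM in Ispir control, 121, 18.0 and 4.13 CPM in Ispir salt, 62.4, 99.8 and 1.25 CPM in TR43477 control and 217, 265 and 215 CPM in TR43477 salt libraries. The basic endochitinase B gene Phvul.009G116600, whose enzyme cuts the chitin of fungal walls, had log2 fold changes of 2.56 in IR (adjusted p = 0.0319) and 1.43 in TR (adjusted p = 0.457). It was at 7.21, 9.89 and 2.13 CPM in control and 27.9, 65.7 and 18.5 CPM in salt libraries of IR, and at 8.11, 1.19 and 1.25 CPM and 3.18, 17.2 and 9.43 CPM in those of TR, where the groups overlapped. The gene listed as FI18644P1-related, Phvul.003G268700, had 2.22 in IR (adjusted p = 0.026) and 0.70 in TR (adjusted p = 0.409).

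The thioredoxin gene Phvul.008G011500, of a family that reduces disulfide bonds in proteins, was at 26.5, 19.8 and 7.48 CPM in Ispir control leaves and under the detection limit in Ispir salt leaves, with 0.0822, 0.0509 and 0.081 CPM. In TR43477 leaves it was at 4.04, 2.29 and 0.556 CPM in control and 8.07, 8.36 and 7.68 CPM in salt libraries. Its root log2 fold changes were 0.40 in IR (adjusted p = 0.713) and −0.81 in TR (adjusted p = 0.25). The alpha/beta-hydrolase superfamily gene Phvul.007G215600 and the leucine rich repeat N-terminal domain gene Phvul.007G087500 had root log2 fold changes of 0.56 and 1.17 in IR (adjusted p = 0.131 and 0.0986) and 0.39 and 1.74 in TR (adjusted p = 0.381 and 0.593). In TR43477 control leaves each had a library far above the rest, 107 CPM against 7.62 and 18.8 CPM for the former and 20.2 CPM against 0.0764 and 0 CPM for the latter.

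Roots were then compared over all members, since they were not used for the choice. In IR, 148 members had at least 1 count and were tested, and the other 2 had none. Of those tested, 22 rose and 4 fell past both thresholds. Of all 23461 genes tested in IR, 2.57% rose and 1.48% fell. At an unadjusted p under 0.05, 75 members were higher and 11 lower, against 15.3% and 12.4% of all genes. Salt libraries lay above all control libraries for 72 members and below them for 9, against 17.9% and 16.1% of all genes. The median log2 fold change was 0.72 over the members and 0.01 over all genes, and 117 members (79.1%) had a positive value, against 50.8% of all genes. The count of members that rose was 1 without IR control replicate 1, 3 without control replicate 2, 9 without control replicate 3, 13 without salt replicate 1, 22 without salt replicate 2 and 11 without salt replicate 3. The count of those that fell was 1 without control replicate 1 or 2 or salt replicate 3, and 2 without control replicate 3 or salt replicate 1. The median lay between 0.60 and 0.80 in these fits. Over all genes, the calls in these fits ran from 137 to 1107, both directions counted. Nothing is read from the members' counts without 1 library.

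In TR, 149 members were tested, 1 rose and 1 fell, against 0.19% and 0.266% of all 23696 genes. At an unadjusted p under 0.05, 40 were higher and 10 lower, against 8.42% and 8.64% of all genes. Salt libraries lay above all control libraries for 47 members and below them for 9, against 16.9% and 7.44% of all genes. The median log2 fold change was 0.45 over the members and 0.00 over all genes, and 104 members (69.8%) had a positive value, against 50.04% of all genes. Without TR control replicate 3, the library that stood apart, 7 members rose and 3 fell and the median was 0.49. Without control replicate 2, 2 rose, and without any 1 of the other libraries none fell. Over all genes, the calls in TR without 1 library ran from 4 to 510, both directions counted. Nothing is read from the members' counts in these fits. The green-tissue genes moved with the treatment in roots too, at 210 to 221 CPM in control and 118 to 126 CPM in salt libraries of IR, and 158 to 538 CPM and 43.9 to 74.3 CPM in those of TR, and their part in the members' root values was not tested.

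**Figure D4:**
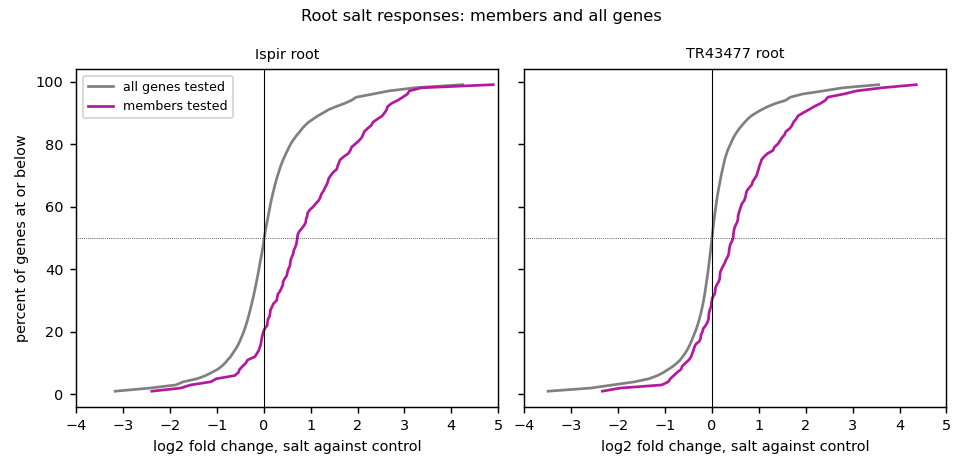
Share of genes (vertical, percent) at or below a log2 fold change of salt against control (horizontal) for the members tested (purple) and all genes tested (grey) in Ispir and TR43477 roots. The members' curve lies to the right of that of all genes, with medians of 0.72 against 0.01 in Ispir and 0.45 against 0.00 in TR43477.

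The roots were then set side by side. Of the 148 members tested in both, 106 (71.6%) had the same sign, near the 65.8% of all genes that did. Within these, 89 members (60.1%) were higher after salt in both roots, against 33.2% of all genes, and 17 (11.49%) were lower in both, against 32.6%. Of the others, 28 had a positive value in IR and a negative one in TR, and 14 the reverse. Of the 22 members that rose in IR, 18 had a positive value in TR, and 11 of these had an unadjusted p under 0.05 there. As a test of the difference, the interaction of genotype and salt over the 12 root libraries called 0 of 149 members in either direction with edgeR's quasi-likelihood test, as it called 0.0% of all 24210 genes. At an unadjusted p under 0.05, 28 members had the higher response in Ispir and 7 the lower, against 7.43% and 4.86% of all genes. DESeq2 called 4 and 2 members, against 0.844% and 0.292% of all genes. The median difference was 0.36 over the members and 0.01 over all genes.

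**Figure D5:**
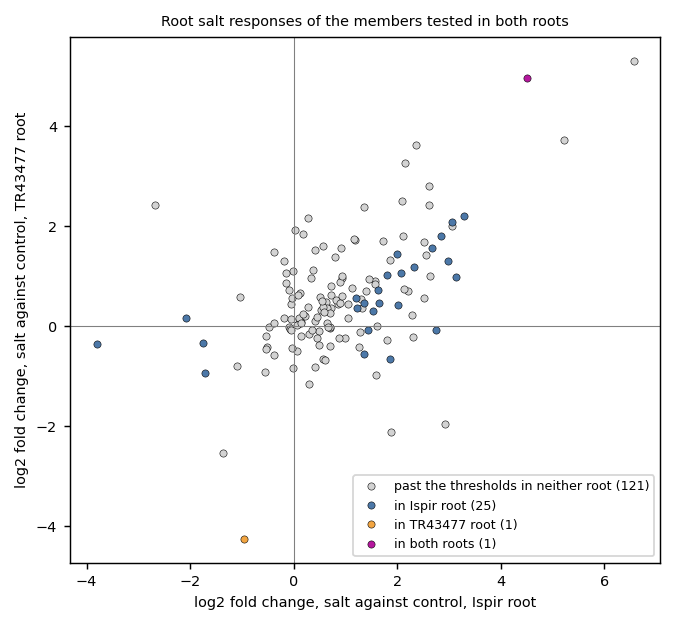
Log2 fold change of salt against control in Ispir roots (horizontal) and TR43477 roots (vertical) for the 148 members tested in both, 1 point a gene, coloured by the root in which it passed both thresholds. Most points lie above and to the right of 0, with 89 members higher in both roots, and 1 member, at 4.52 and 4.95, passed in both.

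The member called in both roots was Phvul.004G108900 (chromosome 4 from 37811435 to 37814119), which the files do not pair with a name. It rose in IR from 2.85, 4.24 and 1.85 CPM to 49.6, 92.9 and 61.3 CPM (log2 fold change 4.52, standard error 0.35, adjusted p = 0.000773) and in TR from 1.80, 1.91 and 2.42 CPM to 82.2, 67.3 and 52.5 CPM (log2 fold change 4.95, standard error 0.24, adjusted p = 0.00106). It was called without each library in turn in either root. In leaves it was at 124, 159 and 19.1 CPM in control and 24.99, 19.3 and 18.0 CPM in salt libraries of Ispir, and at 18.5, 23.5 and 26.6 CPM and 180, 166 and 171 CPM in those of TR43477. Its salt libraries thus lay above its control libraries in both roots and in TR43477 leaves, and the groups overlapped in Ispir leaves.

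A second unnamed member, Phvul.001G087800 (chromosome 1 from 13723499 to 13741172), rose in IR from 7.28, 10.2 and 9.53 CPM to 45.03, 97.4 and 85.7 CPM (log2 fold change 3.07, standard error 0.30, adjusted p = 0.00134). Without IR control replicate 1 or 2 its adjusted p was 0.0107 or 0.0108. In TR it was at 5.33, 3.17 and 26.5 CPM in control and 45.95, 55.1 and 57.9 CPM in salt libraries, without overlap and without a call (log2 fold change 2.09, adjusted p = 0.197). Of the 4 members that fell in IR, 3 are the annotated genes above, and the other was Phvul.001G171100 (chromosome 1 from 42783737 to 42785096). It went from 31.7, 39.0 and 51.6 CPM to 10.5, 11.2 and 16.1 CPM (log2 fold change −1.70, standard error 0.24, adjusted p = 0.00444). Its call was lost without any 1 library except salt replicate 2 (adjusted p from 0.0103 to 0.0206). In TR it was at 67.6, 90.7 and 49.0 CPM in control and 40.4, 35.0 and 40.1 CPM in salt libraries (log2 fold change −0.93, adjusted p = 0.0851).

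The genotypes were also compared in control roots, where 146 members were tested. None was called higher in Ispir and 1 was called lower (edgeR's quasi-likelihood test), against 0.99% and 1.08% of all 23626 genes. At an unadjusted p under 0.05, 21 members were higher and 29 lower in Ispir, against 11.7% and 14% of all genes. DESeq2 called 5 higher and 16 lower, against 3.15% and 3.84% of all genes. The median difference, Ispir minus TR43477, was −0.18 over the members and −0.01 over all genes. In control leaves, by contrast, 137 of the 150 members were higher in Ispir by mean CPM, but these libraries entered the choice. The member called was Phvul.008G193900 (chromosome 8 from 53664599 to 53666263), unnamed in the files, at 10.96, 10.7 and 9.17 CPM in Ispir and 19.8, 21.0 and 22.9 CPM in TR43477 control roots (log2 difference −1.10, standard error 0.14, adjusted p = 0.00564). It lost the call without any 1 library except TR43477 control replicate 3 (adjusted p from 0.0163 to 0.041). Without TR43477 control replicate 3, 4 members were called lower. Over all genes, the calls without 1 library ran from 52 to 663, both directions counted, and nothing is read from this count.

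Most members were counted in roots as well. Their mean over the 12 root libraries had a median of 15.4 CPM, and their mean over the 12 leaf libraries one of 20.9 CPM. Over all genes counted in the tissue, these medians were lower, at 12.4 CPM in root and 10.6 CPM in leaf. Mean CPM was higher in control roots than in control leaves for 37 members in Ispir and for 87 in TR43477, against 60.9% and 64.4% of all genes, but the leaf libraries entered the choice and nothing is read from these counts. Only 4 members (of 150) had at most 3 counts in every root library, against 5.92% of all genes counted in leaf. These leaf-restricted members were at 5.84 to 365 CPM in Ispir control and 15.3 to 195 CPM in TR43477 salt leaves. In the other leaf groups they were at 0.324 to 35.2 CPM (Ispir salt) and 0 to 38.0 CPM (TR43477 control).

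In the genome (v2.1, as in the deposited tables), the members lay on all 11 chromosomes and, for 2 of them, on a unit numbered 12 in the files. Chromosome 9 held 21 members (14% of them, against 9.81% of all genes) and chromosome 8 held 20 (13.3% against 10.8%), while chromosome 3 held 9 (6% against 11.03%). Their gene models had a median length of 2709 bp, against 2957 bp for all genes. In the order of genes along the chromosomes, 12 members formed 6 pairs of neighbours, at most 50330 bp apart.

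In a pair on chromosome 9, one gene was called in IR and the other was not, and the difference was not tested. Phvul.009G254300 (chromosome 9 from 37450136 to 37456647) rose in IR from 76.9, 70.8 and 98.1 CPM to 231, 194 and 207 CPM (log2 fold change 1.35, standard error 0.18, adjusted p = 0.00351), a call lost without IR control replicate 1 or 2 or salt replicate 1 or 3 (adjusted p from 0.0109 to 0.0298). Its neighbour Phvul.009G254400, which lies 14864 bp further on, was at 66.0, 52.5 and 57.4 CPM in control and 54.4, 31.6 and 35.2 CPM in salt libraries of IR (log2 fold change −0.54, adjusted p = 0.161). In TR their log2 fold changes were −0.56 (adjusted p = 0.435) and −0.20 (adjusted p = 0.574).

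One of the pairs overlaps, and its members cannot be counted as separate measurements. Phvul.011G132500 (chromosome 11 from 34275707 to 34276452, plus strand) lies inside Phvul.011G132801 (chromosome 11 from 34269404 to 34280648, minus strand). In TR43477 they had equal counts in 11 of 12 libraries, such as 42, 43 and 4 counts in control and 170, 135 and 166 counts in salt leaves, although they lie on opposite strands. In Ispir they had equal counts in 0 of 12 libraries, with 147, 141 and 152 counts for the longer and 116, 76 and 60 counts for the shorter gene in control leaves. In TR43477 the counts thus do not tell these genes apart. Of the 150 members, 4 overlap another gene of the tables, all on the opposite strand, against 2.45% of all genes that overlap any other.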

How the data were processed

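Stranded poly(A) libraries of leaf and root were made and sequenced by a company, and the reads were trimmed with Trimmomatic, mapped with HISAT2 against version 2.1 of the common bean genome, and counted per gene in SeqMonk. The deposited tables hold counts that were not normalized. Their p-value, FDR and log2 fold change columns hold the authors' own comparison of salt with control and were not used. Rules for strand and for reads shared by genes are not given in the sources used here.

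Members were chosen on log2(CPM + 1) of the 12 leaf libraries. They and the lists of genes were chosen with earlier results of these data known. TMM factors were computed in edgeR 4.0.16 (R 4.3.3) on genes with at least 1 count in the libraries compared, and its two-sided quasi-likelihood test was run on all of them, with p-values adjusted by Benjamini and Hochberg. DESeq2 1.42.0 was an alternative. For standard errors, the size of a log2 fold change was divided by the root of its F statistic. The 3 plants of a group are the replicates. The procedure was also run on simulated counts with a common dispersion for all genes and no outlying libraries. That run does not cover the spread between the libraries used here.

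The rule for named members took the highest scores, members annotated in the study's lists, members called in a root and neighbours. Names come from the study's lists, since 0 of the identifiers matched the RefSeq gene table, and few unnamed identifiers are printed. Functional lists by description, promoter motifs and sequences were not analysed here. Alternatives were other normalizations, filters, tests, thresholds, sample sets, pseudocounts, the replicate block and fits without each library. The choice without control replicate 3 of both leaf groups was added after seeing the data.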

Additional observations from a re-analysis of the deposited data

How the results depend on the processing

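The direction of the members' medians held under every alternative run, at 0.60 to 0.80 in IR, 0.33 to 0.54 in TR and −0.22 to −0.09 between control roots. The number of members called depended on the test, and the cause was not tested. Calls over all genes also changed with the setting, and are given in the next paragraph with both directions counted. Their shares by direction are not given here for each setting, so nothing is read from the members' counts. Members that rose in IR numbered 45 with DESeq2, 43 with the likelihood ratio test, 41 with the replicate block, 41 at an adjusted p under 0.05 and 1 to 22 without 1 library, and those that fell 1 to 4 without 1 library. In TR, 12 rose and 2 fell with DESeq2, 14 and 2 with the likelihood ratio test, 4 and 2 at an adjusted p under 0.05 or over the 12 root libraries, 0 and 0 with the replicate block, 1 to 7 and 0 to 3 without 1 library, and 0 fell with filterByExpr. Between control roots, 5 were higher and 16 lower in Ispir with DESeq2, 6 and 15 with the likelihood ratio test, 4 and 10 at an adjusted p under 0.05, 2 and 9 over the 12 root libraries, 0 and 0 with the replicate block, and 0 to 1 and 0 to 4 without 1 library. For the root interaction, 4 and 2 were called with DESeq2 or the likelihood ratio test, 1 and 1 at an adjusted p under 0.05, and 0 and 0 to 2 without 1 library (2 without TR43477 root control replicate 2).

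For the leaves, whose contrasts the rule used, the 17 calls in IL became 99 with DESeq2, 95 with the likelihood ratio test, 44 with the replicate block, 83 at an adjusted p under 0.05 and 0 to 44 without 1 library, and the 25 in TL became 76, 74, 0, 67 and 2 to 52. Over all genes, the 1073, 1153, 952 and 108 calls in the leaves (IL, TL) and roots (IR, TR) became 3169, 3650, 1861 and 863 with DESeq2, 3296, 3515, 2115 and 943 with the likelihood ratio test, and 3122, 3181, 1889 and 475 at an adjusted p under 0.05. The study, with edgeR at the same thresholds, reported more than 1073, 1153, 952 and 108 genes in IL, TL, IR and TR. The replicate block gave 0 calls in TL, 1445 in IR and 5 in TR. The 12 libraries of the tissue gave 2423 in TL and 354 in TR. Without 1 library they ran from 91 to 1412, 25 to 2085, 137 to 1107 and 4 to 510. Between control roots, 489 became 1552, 1833, 1377, 25 and 1073 with DESeq2, the likelihood ratio test, the adjusted p under 0.05, the replicate block and the 12 libraries, and 52 to 663 without 1 library. For the interaction, 0 became 253, 251 and 62 with the first 3 of these, and up to 34 without 1 library.

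Whether replicate numbers pair the samples remains unknown. Control and salt libraries of a genotype and tissue were compared, as were the control roots of the genotypes. Deviations of same-numbered libraries from their group means correlated at −0.16 to 0.39 over genes. Of 30 libraries, each comparison counted, 11 correlated best with their own number. Leaf libraries were not set against root libraries, so this check cannot show whether they share plants.

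The choice kept 135 members with TMM or upper-quartile CPM or with a mean of at least 5 CPM. It kept 111 with a pseudocount of 0.25 CPM and 106 with 5 CPM. Without 1 leaf library it kept 117 to 142, and 61 were chosen in all 12 of those selections. Of the 14 annotated members, 5 were among these 61. Without control replicate 3 of both leaf groups, chosen after seeing the data, 105 were kept. Of the 150 genes then chosen, 23 rose and 3 fell in IR, against 2.57% and 1.48% of all genes. In TR 2 rose and 1 fell, against 0.19% and 0.266%. Between control roots 1 was higher and 1 lower in Ispir, against 0.99% and 1.08%. Of 257 fits of 19 results of named members under an alternative, 189 kept the call or its absence, 41 lost a call, 27 gained it and 0 changed sign. The replicate block ended the calls of the K+ transporter 1 gene (adjusted p = 0.0337) and Phvul.004G108900 (0.0207) in TR and of Phvul.008G193900 between control roots (0.0445). Depth limits members near 3 counts, such as the thioredoxin gene in Ispir salt leaves.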
